A study of Mus musculus with 71 samples.

Results

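The authors' accessibility table holds 155738 intervals. Of these, 2871 (1.84%) were chosen as more open in p2 progenitors than in p0-p1 and pMN on day 9 of the wild-type course. Their p2 lead was small or absent on day 11. They were chosen by a rule on group means of log2(value + 5), where the value is the normalised read count of an interval in a library. The p2 excess of a region is its p2 mean minus the higher of its p0-p1 and pMN means. A region was taken when its WT excess was at least 0.7 on day 9, in cells of the NFIAn fraction, and below 0.3 on day 11. The intervals are numbered and carry no position or gene name in the table used here, so the regions are given by number and no sequence is printed.

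Mouse embryonic stem cells were differentiated in culture into ventral spinal cord progenitors and assayed by CaTS-ATAC, an ATAC-seq protocol for fixed cells that are stained inside the cell and sorted. The table holds 71 libraries in 26 groups, 7 of 2 libraries and 19 of 3, with 38 WT and 33 MUT libraries from days 5, 7, 9 and 11. The labels call the genotypes WT and MUT and do not name the mutated gene. Each library is 1 sorted population, p0-p1, p2 or pMN, and its title carries NFIAn or NFIAp, read here as the fraction without or with the protein NFIA. MUT groups carry NFIAn on every day. The WT groups carry NFIAn on days 5 and 7 and NFIAp on day 11; day 9 has NFIAn groups of all 3 populations and NFIAp groups of p2 and pMN. The WT step from day 9 NFIAn to day 11 therefore changes the day and the NFIA fraction at once. The NFIAp groups of day 9 separate these for p2 and pMN, but no p0-p1 NFIAp group exists on that day, so for the excess over both neighbours they cannot be told apart. All cultures shared the same medium changes: bFGF, then a GSK3β inhibitor, then retinoic acid with the Smoothened agonist SAG, and SAG alone from day 5.

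ATAC-seq reads mark DNA that the transposase Tn5 can reach, which is typical of active promoters and enhancers. In the ventral neural tube, Sonic hedgehog signalling, which SAG imitates, sets up ordered progenitor domains. The p0 and p1 domains give rise to V0 and V1 interneurons, p2 to V2 interneurons, and pMN to motor neurons and later to oligodendrocytes. NFIA is a transcription factor known from the later switch of these progenitors towards glial fates.

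Recovered reads per library ranged from 20034731 to 31315134. The labels do not say that replicates came from separate cultures. The p-values then reflect only how much these libraries differ among themselves, possibly for technical reasons. The labels of 3 libraries are in doubt. Along the p2 minus pMN difference of WT D9 NFIAn over all tested intervals, measured from the pMN NFIAp mean, WT D9 p2 NFIAp replicate 2 lay at 5.16% of the way to p2, and replicates 1 and 3 at 33.4% and 43.8%. Replicates 1 and 2 both correlated more with the pMN NFIAp libraries (mean r 0.963 and 0.968) than with the other p2 NFIAp libraries (0.950 and 0.946). In a run of consecutive intervals that held at least 148 reads in every other WT library and at most 1 in every other MUT library, the library labelled WT D7 pMN replicate 3 had 0 reads and that labelled MUT D7 pMN replicate 3 had 213. For each single limma comparison that uses these libraries, the count in its leading direction is also given without all 3; counts joined over comparisons are not. The populations' own marker genes could not be checked, because the intervals carry no gene names.

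The values that chose the regions are given as a description. The WT excess on day 9 ran from 0.70 to 2.41 (log2), with a median of 0.89 and an interquartile range of 0.79 to 1.05. On day 11 it ran from -2.07 to 0.30, with a median of -0.01. On that day p2 was still the highest WT population in 1391 regions (48.5%, against 28.3% of all intervals). The neighbours were open too: the median WT D9 NFIAn level was 59.7 normalised reads in p2, 27.1 in p0-p1 and 20.5 in pMN. The second-highest population on day 9 was p0-p1 in 2150 regions and pMN in 721. In 2588 regions (90.1%, against 7.04% of all intervals) every WT D9 p2 NFIAn library lay above every p0-p1 and pMN NFIAn library. The regions were neither faint nor strong as a set: their mean over all libraries had a median of 34.5 normalised reads, beside 31.8 for all intervals. At the edge of the day 9 threshold, Interval_91378 was inside at 0.70 and Interval_120824 just outside, also 0.70 when rounded. At the day 11 threshold, Interval_113017 was inside and Interval_96203 outside, both at 0.30 when rounded.

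The number of regions depends on the pseudocount. The rule gave 3794 regions with a pseudocount of 1 and 1540 with 20, and the latter shared 1311 with the set described here, which is 45.7% of this set and 85.1% of the other. Leaving out 1 library at a time gave 2387 to 3944 regions.

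The regions were also p2-high on day 9 in MUT, in libraries the rule did not use. In the 2 MUT D9 p2 libraries the median over regions was 61.8 and 90.2 normalised reads. The MUT p2 medians were highest on day 9, as the plot of library medians by day shows. The WT D9 p2 NFIAn medians were 49.4, 61.5 and 68.2 reads, a description of libraries that the rule used. Against p0-p1, 1099 of the 2871 regions were higher in p2 (38.3%, against 2.72% of all intervals) and 0 were lower (1.94% of all intervals; limma, Benjamini-Hochberg adjusted p under 0.05). Against pMN, 1617 were higher (56.3%, against 4.96%) and 0 lower (1.89% of all intervals). No region was lower at an unadjusted p under 0.05 in either comparison, and edgeR also called 0 lower in both. The median differences were 0.88 and 1.04 (log2), where all intervals had 0.01 and 0.00.

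**Figure D1:**
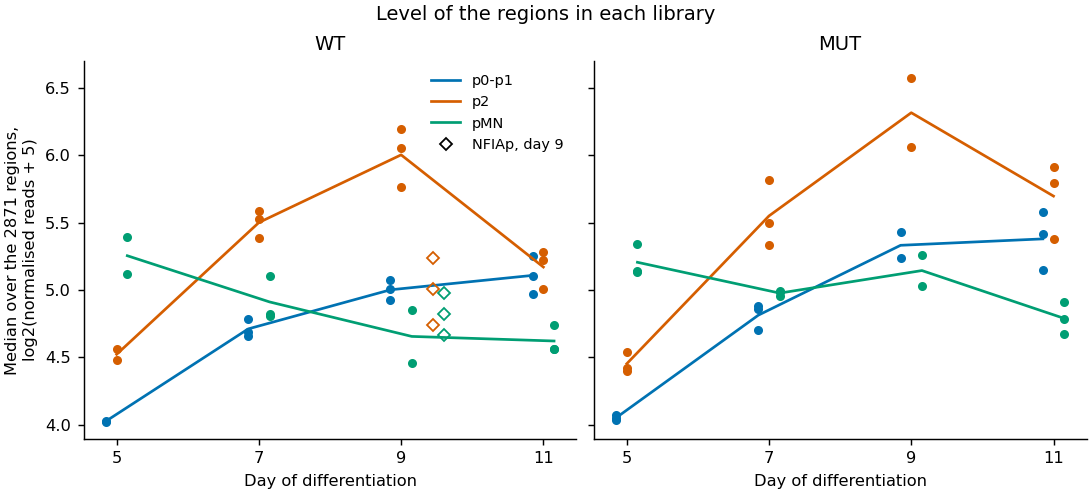
Each point is 1 library and gives the median over the 2871 regions of log2(normalised reads + 5) against day of differentiation, for WT and MUT, and lines join the means of the library medians of a population. Open diamonds, drawn to the right of day 9, are the WT NFIAp libraries of that day. The p2 line is below pMN on day 5 and is highest on day 9 in both genotypes, and the range of the WT D9 NFIAp p2 libraries overlaps that of the pMN ones.

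The MUT excess against the higher neighbour had a median of 0.77 on day 9 and was above 0 in 2820 regions (98.2%, against 30.5% of all intervals). Every MUT D9 p2 library lay above every p0-p1 and pMN library in 2347 regions (81.7%, against 10.5%). Higher calls against both neighbours were made in 753 regions (26.2%, against 1.15%); these 2 comparisons share the p2 libraries. The size of the effect in MUT differed between its 2 libraries. Replicate 1 had a median excess of 0.55 and replicate 2 of 0.99. Without MUT D9 p2 replicate 2 the counts fell to 150 against p0-p1 and 517 against pMN, and without pMN replicate 1 the count against pMN was 772. The count against p0-p1 was 398 without MUT D9 p0-p1 replicate 1 and 520 without its replicate 2.

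Regions with a larger WT excess also had a larger MUT excess. Among the 1992 regions with a WT D9 excess below 1, 17.0% were called above both neighbours in MUT D9, among the 782 from 1 to 1.5 it was 43.6%, and among the 97 from 1.5 upwards 75.3%. Across the 2871 regions, Pearson's r between the WT and MUT excess on day 9 was 0.54 and Spearman's rho 0.51, given as a description over regions that share libraries within each genotype. Applied to MUT alone, the same rule chose 1864 intervals, of which 835 were shared, 29.1% of the regions described here and 44.8% of the MUT list.

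**Figure D2:**
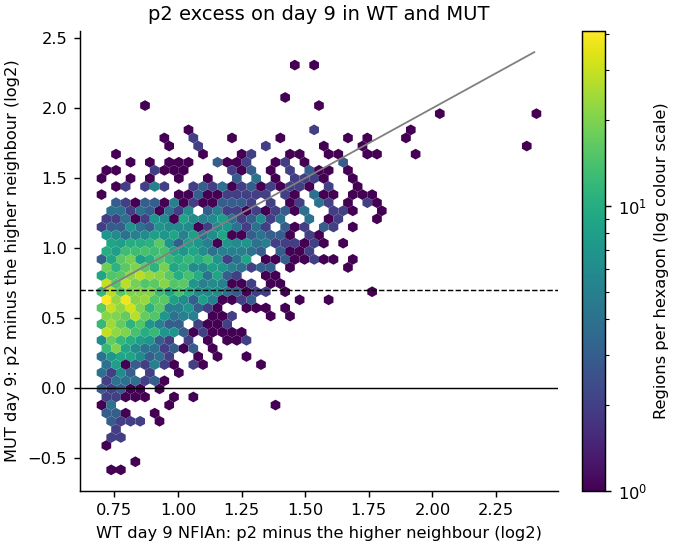
The WT p2 excess on day 9 (x axis, log2, at least 0.7 by the rule) is plotted against the MUT p2 excess on day 9 (y axis, log2), with colour for the number of regions per hexagon on a log scale. The solid horizontal line is 0, the dashed line 0.7 and the grey line equality; 2820 of 2871 regions lie above 0 and 1659 at or above 0.7.

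Interval_7514 was among the regions with the largest WT excess (1.90). On day 9 it had 471, 517 and 626 normalised reads in the WT p2 NFIAn libraries, against 105, 101 and 136 in p0-p1 and 123 and 159 in pMN. In MUT it had 493 and 680 reads in p2, 136 and 178 in p0-p1 and 146 and 191 in pMN. No p2 library overlapped a neighbour in either genotype. The MUT difference was 1.87 ± 0.33 (log2, SE) against p0-p1 (limma, adjusted p = 0.000122) and 1.76 ± 0.33 against pMN (adjusted p = 0.000129). In the WT D9 NFIAp fraction the same region had 182, 125 and 229 reads in p2 and 167, 158 and 238 in pMN, which overlap (limma, adjusted p = 0.953).

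Interval_97383 had the largest WT excess, 2.41. Its WT D9 p2 NFIAn libraries had 139, 121 and 183 reads, against 23.5, 31.7 and 16.8 in p0-p1 and 18.0 and 26.9 in pMN. In MUT D9 the p2 libraries had 147 and 235 reads, p0-p1 35.6 and 54.4, and pMN 47.3 and 36.9. The groups did not overlap, and the MUT differences were 1.96 ± 0.34 against p0-p1 (limma, adjusted p = 0.000109) and 2.03 ± 0.34 against pMN (adjusted p = 2.55e-05).

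Interval_132868 had the largest MUT D9 excess, 2.31, among regions called against both neighbours with at least 30 normalised reads in MUT D9 p2. Its MUT D9 p2 libraries had 30.4 and 62.3 reads, against 1.92 and 9.06 in p0-p1 and 0.986 and 7.02 in pMN. In MUT on day 11 its p2 libraries had 1.01, 5.73 and 1.83 reads. The region had at most 5.73 reads in any library of day 11, and its MUT p2 level fell by 2.68 (log2, SE 0.33) from day 9 to day 11 (limma, adjusted p = 2.85e-09). Because it was chosen on its MUT D9 values, comparisons that use the MUT D9 libraries describe this region and are no separate support.

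At the other end, 51 regions had a MUT D9 excess of 0 or less. Interval_29251, which lies in 1 of the blocks of numbers described with the interval numbers, had the most negative one among regions with at least 30 reads in WT D9 p2, -0.37. Its WT D9 p2 NFIAn libraries had 38.2, 38.4 and 32.8 reads, and the 2 MUT D9 p2 libraries 12.4 and 23.3, among 21.2 and 16.3 in p0-p1 and 19.7 and 28.1 in pMN. The MUT groups overlapped, and neither comparison passed (limma, adjusted p = 0.958 and 0.742). Interval_45279 had 94.1 and 65.1 reads in MUT D9 p2 and 80.9 and 107 in pMN, which overlap (adjusted p = 0.846), while WT p2 NFIAn had 87.5, 76.9 and 69.9 against 31.8 and 50.9 in pMN. This region was pMN-high on day 7, when p2 was lower by 0.84 ± 0.20 over both genotypes (limma, adjusted p = 0.00106).

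In the NFIAp fraction of the same day, the p2 lead over pMN was small. Over all tested intervals, too, these p2 libraries lay only 33.4%, 5.16% and 43.8% of the way from pMN to p2. A weak difference between p2 and pMN in this fraction is thus not limited to the regions. The WT D9 NFIAp p2 libraries had medians over the regions of 27.2, 21.8 and 32.8 reads, below each of the NFIAn libraries. Against pMN NFIAp, 38 regions were higher in p2 (1.32%, against 0.67% of all intervals) and 2 lower (0.0697%, against 0.846%; limma, Benjamini-Hochberg adjusted p under 0.05), with a median difference of 0.16. No p0-p1 NFIAp group exists on that day, so the excess against both neighbours could not be computed. By library, the median difference from the pMN mean was 0.17, -0.02 and 0.33 in NFIAp replicates 1, 2 and 3, where replicate 2 is the doubted one, and 1.05, 1.30 and 1.41 in NFIAn, which the rule used. Without replicate 2 the count was 214, without the 3 doubted libraries 222, and without replicate 3 it was 2. With the replicate number as a block, which pairs these libraries, it was 183, with 25 lower, and in a fit of only these 2 groups 0. Every p2 NFIAp library lay above every pMN NFIAp library in 265 regions (9.23%, against 6.11%).

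The level in p2 NFIAp was below that of p2 NFIAn in 2846 regions (99.1%). The median difference was -1.01, beside 0.02 for all intervals. The NFIAn mean was part of the choice, so this is a description. From day 9 NFIAp to day 11, also NFIAp, the WT p2 level had a median difference of 0.12, beside -0.01 for all intervals. It was above 0 in 57.7% of the regions, again as a description, since day 11 was part of the choice. A pair of comparisons that leave the WT NFIAn libraries of that day out was added after the data were seen. Against WT p2 on day 7, p2 NFIAp on day 9 was lower in 1078 regions (37.5%, against 17.7% of all intervals) and higher in 108 (3.76%, against 16.5%), with a median of -0.43 (limma, Benjamini-Hochberg adjusted p under 0.05). Without the 3 doubted libraries, 920 were lower and 205 higher. Against MUT p2 on day 9, which is NFIAn, WT p2 NFIAp was the lower in 2325 regions (81.0%, against 11.8%) and the higher in 8 (0.279%, against 5.48%), with a median MUT minus WT of 1.28. This count was 2074 without the 3 doubted libraries, 690 in a fit of only these 2 groups, and 1246 without MUT D9 p2 replicate 2. In that comparison genotype and NFIA fraction change together and cannot be told apart. The WT NFIAp p2 libraries, which lay nearer pMN than p2 over all tested intervals, enter it as well.

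The p2 minus pMN difference itself was compared between MUT and the WT NFIAp fraction on day 9. It was larger in MUT in 184 regions (6.41%, against 0.324% of all intervals) and smaller in 0 (0.025% of all intervals; limma, Benjamini-Hochberg adjusted p under 0.05), with a median of 0.92, and 1714 regions were larger at an unadjusted p under 0.05 (59.7%, against 6.14%). No region was smaller in MUT at an unadjusted p under 0.05 or by edgeR. The count was 121 without the 3 doubted libraries and 0 without MUT D9 p2 replicate 2 or in a fit of only these groups. It also rests on the WT NFIAp p2 libraries, which lay nearer pMN than p2 over all tested intervals. Interval_132868, which was chosen for its large MUT D9 excess, had the p2 minus pMN difference larger in MUT by 2.94 ± 0.46 (adjusted p = 0.00133). In WT NFIAp that region had 1.88, 2.07 and 2.81 reads in p2 and 5.81, 5.29 and 3.06 in pMN, so the p2 libraries were the lower ones there, without passing the test (adjusted p = 0.632).

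On day 11 MUT p2 was compared again with each neighbour. Against pMN, 1397 regions were higher in MUT p2 (48.7%, against 5.43% of all intervals) and 5 lower (0.174%, against 2.01%), with a median of 0.77. Against p0-p1, 320 were higher (11.1%, against 6.97%) and 6 lower (0.209%, against 7.51%), with a median of 0.26 (limma, Benjamini-Hochberg adjusted p under 0.05). Higher calls against both, which share the p2 libraries, were made in 154 regions (5.36%, against 0.78%). The median MUT excess on day 11 was 0.40, 0.31 and -0.06 in replicates 1, 2 and 3. Without MUT D11 p2 replicate 1 the counts were 903 and 117, and without replicate 3 they were 1528 and 462. Of the 753 regions called above both neighbours in MUT D9, 102 were again called above both on day 11, 410 above pMN alone and 197 above neither.

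The MUT p2 minus pMN difference on day 11 can be set against that of WT NFIAp on day 9, which is also a step away from WT D9 NFIAn. It was larger in MUT D11 in 105 regions (3.66%, against 0.274% of all intervals) and smaller in 0 (0.0141% of all intervals), with 5 smaller at an unadjusted p under 0.05 and 0 by edgeR, and a median of 0.66 (limma, Benjamini-Hochberg adjusted p under 0.05). Without MUT D11 p2 replicate 1 it was 21, and without the 3 doubted libraries 155. Day, genotype and fraction all differ between these groups, and the same WT NFIAp p2 libraries enter.

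**Figure D3:**
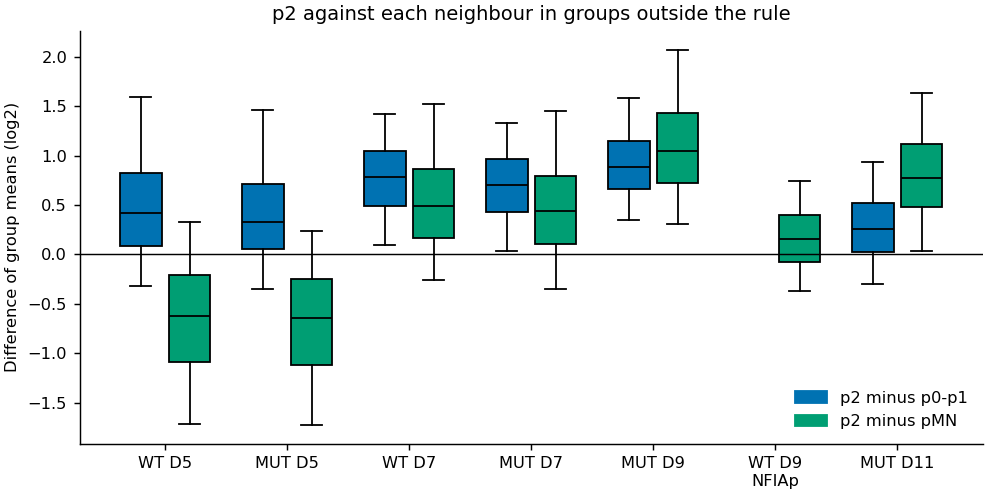
Box plots over the 2871 regions of the p2 group mean minus the p0-p1 mean (blue) or the pMN mean (green), in log2, for the groups that took no part in choosing the regions. Boxes span the quartiles with the median as a line, and whiskers the 5th to the 95th percentile of regions. Against pMN the median is -0.62 in WT D5, 0.49 in WT D7, 1.04 in MUT D9, 0.16 in WT D9 NFIAp and 0.77 in MUT D11.

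Whether the MUT lead was smaller on day 11 than on day 9 was not settled at this depth and number of libraries. The excess over the mean of both neighbours was less on day 11 in 0 regions and more in 0 (limma, Benjamini-Hochberg adjusted p under 0.05), and edgeR also gave 0. Of all 155734 intervals, 0 were called less and 1 more (0.000642%), so the absence of calls is not particular to the regions. At an unadjusted p under 0.05, 644 regions were less (22.4%, against 3.23% of all intervals) and 1 more (0.0348%, against 2.24%). The median change was -0.46, beside -0.02 for all intervals. Against p0-p1 alone the difference was smaller on day 11 in 4 regions (0.139%, against 0.0276%), with a median change of -0.66, and against pMN alone in 1 region (0.0348%, against 0.00578%), with a median of -0.28. Interval_132868, chosen for its large MUT D9 excess, was 1 of the 4, with its lead over p0-p1 smaller by 2.13 on the log2 scale (adjusted p = 0.0472).

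The p2 level itself did change in MUT after day 9. It fell from day 9 to day 11 in 1295 regions (45.1%, against 14.1% of all intervals) and rose in 92 (3.20%, against 15.2%), with a median of -0.64 (limma, Benjamini-Hochberg adjusted p under 0.05). Over the 2 days before, from day 7 to day 9, it rose in 1466 (51.1%, against 11.1%) and fell in 43 (1.50%, against 10.6%), with a median of 0.80. Without MUT D9 p2 replicate 2, which enters both comparisons, 450 fell and 653 rose. In comparisons added after the data were seen, over the same days before, MUT p0-p1 rose in 1024 regions (35.7%, against 12.2%) and fell in 50 (1.74%, against 12.5%), while pMN rose in 405 (14.1%, against 8.33%) and fell in 216 (7.52%, against 10.3%). Without the doubted libraries, pMN rose in 314 and fell in 187. From day 9 to day 11, MUT pMN fell in 819 regions (28.5%, against 13.3%) and rose in 218 (7.59%, against 15.6%). MUT p0-p1 rose in 336 (11.7%, against 11.1%) and fell in 274 (9.54%, against 9.21%), close to the background in both directions.

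The WT regions lost their p2 excess in different ways, described here from the same values as the rule. In 1906 (66.4%) the p2 mean was lower on day 11 by at least 0.5 and the higher neighbour had not risen by as much. In 687 (23.9%) the higher neighbour was up by at least 0.5 and p2 was not down by as much. In 132 both held and in 146 neither. In the 687, p0-p1 was the higher neighbour on day 11 in 346 and pMN in 341. In the 1906, p0-p1 was the higher one in 1619. The division sets day 9 NFIAn against day 11 NFIAp, so day and NFIA fraction change together in it. Within day 9, the median WT p2 NFIAp minus NFIAn was -1.10 in the 1906 and -0.80 in the 687. The p2 level was thus lower in NFIAp in both kinds. MUT libraries, which had no part in this division, differed between the first 2 kinds. MUT p2 fell from day 9 to day 11 in 1210 (63.5%) of the 1906 and in 43 (6.26%) of the 687, against 14.1% of all intervals. MUT p0-p1 rose in 25 (1.31%) of the 1906 and in 275 (40.0%) of the 687, against 11.1% of all intervals. These counts use the limma calls above, and the shares between the kinds were not compared by a test.

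**Figure D4:**
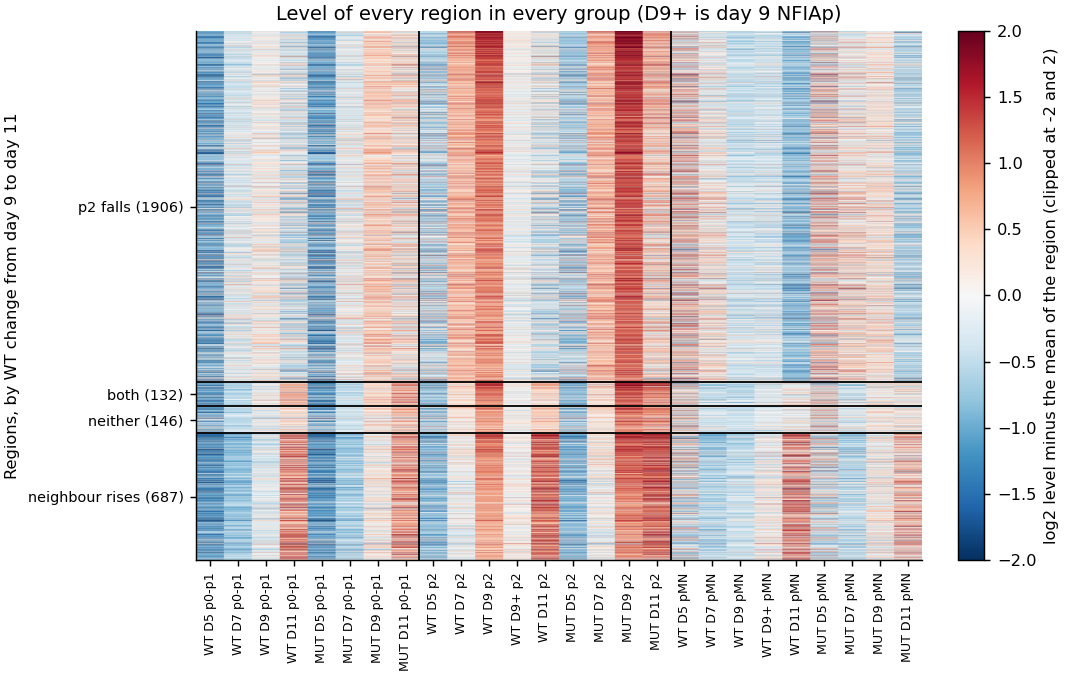
Rows are the 2871 regions and columns 26 groups, with colour for the log2 group mean minus the mean of the row over the groups, cut at -2 and 2. Rows are split by their WT change from day 9 to day 11 into p2 falls (1906), both (132), neither (146) and neighbour rises (687), and sorted within each by the WT excess on day 9. The p2 columns are reddest on day 9 in both genotypes, and in the lowest block the day 11 columns are red in WT p0-p1, p2 and pMN.

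Interval_28532 was a region of the second kind, with a WT day 11 excess of -1.85. On day 9 WT p2 NFIAn had 38.2, 43.9 and 52.2 reads and pMN 22.2 and 22.9, and on day 11 pMN had 333, 269 and 247 against 106, 70.99 and 54.4 in p2. In MUT on day 11 pMN had 64.3, 41.1 and 42.0 reads and p2 52.3, 44.9 and 23.9, which overlap (limma, adjusted p = 0.676). Its number lies in a block of intervals whose level differs between the genotypes, described with the interval numbers. Interval_69281, where p2 was lower and the neighbour higher, had p0-p1 as the highest population on WT day 11, at 170, 72.1 and 59.0 reads against 26.9, 33.4 and 25.5 in p2. The p2 and p0-p1 libraries did not overlap, and 1 p0-p1 library lay far above the other two.

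Interval_16327 opened in all 3 WT populations on day 11. It had 78.2, 71.4 and 99.3 reads in WT D9 p2 NFIAn, and on day 11 373, 399 and 250 in p2, 257, 271 and 139 in p0-p1 and 374, 286 and 275 in pMN. In MUT on day 11 the level was lower and p2 was ahead, at 146, 149 and 70.6 reads against 41.9, 51.9 and 28.7 in p0-p1 and 53.4, 47.0 and 31.7 in pMN. The MUT D11 differences were 1.43 ± 0.29 against p0-p1 (limma, adjusted p = 0.000235) and 1.33 ± 0.29 against pMN (adjusted p = 0.0012), with no overlap between the groups. The region was named as 1 of the 4 with the largest MUT D11 excess. Its MUT D11 differences were thus chosen to be large, and these values are a description.

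The lead over p0-p1 was called in part of the regions on day 5 and in more on day 7. The lead over pMN was called in few on day 5. The change of the lead over p0-p1 between these days was not tested. On day 5, the first day measured, the regions were most open in pMN. Over both genotypes, 1570 regions were lower in p2 than in pMN (54.7%, against 13.5% of all intervals) and 21 higher (0.731%, against 8.26%), with a median of -0.63 (limma, Benjamini-Hochberg adjusted p under 0.05). Against p0-p1, 952 were higher in p2 (33.2%, against 8.52%) and 12 lower (0.418%, against 3.87%), with a median of 0.35. With the replicate block, 35 were above pMN and 38 below p0-p1. The highest population on day 5 was pMN in 80.9% of the regions in WT and 83.9% in MUT, where all intervals had 34.2% and 34.5%.

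By day 7 p2 was ahead of both neighbours in most regions. Against p0-p1, 2037 were higher in p2, where 9.41% of all intervals were, and 3 lower (0.104%, against 7.34%), with a median of 0.74, and against pMN 1344 were higher (46.8%, against 9.82%) and 46 lower (1.60%, against 9.98%), with a median of 0.47. Without the 3 doubted libraries the counts against pMN were 1284 higher and 25 lower, and with the replicate number as a block, which pairs the day 7 libraries, 92 were lower. Calls above both, which share the p2 libraries, numbered 1054 (36.7%, against 2.24%). The p2 population was the highest in 82.3% of regions in WT and 78.2% in MUT, where all intervals had 26.4% and 23.8%. The median excess was 0.40 in WT and 0.33 in MUT.

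The change from day 5 to day 7 was tested directly against pMN, as a comparison added after the data were seen. The p2 minus pMN difference was larger on day 7 in 1961 regions (68.3%, against 7.92%) and smaller in 1 (0.0348%, against 2.44%), with a median of 1.15 (limma, Benjamini-Hochberg adjusted p under 0.05). Without the 3 doubted libraries it was larger in 1960. Both populations moved. In p2, 2211 regions rose (77.0%, against 22.7%) and 66 fell (2.30%, against 21.6%). In pMN, 1066 fell (37.1%, against 21.9%) and 534 rose (18.6%, against 21%), and without the doubted libraries 1031 fell and 472 rose. In p0-p1, 1721 rose (59.9%, against 23.8%) and 115 fell (4.01%, against 21.4%). In MUT from day 5 to day 9, the p2 minus pMN difference was larger in 2181 regions (76.0%, against 7.95%) and smaller in 0 (1.22% of all intervals), with 1 smaller at an unadjusted p under 0.05 and 0 by edgeR.

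A reversal, with p2 called below pMN on day 5 and above it on day 7, was seen in 682 regions (23.8%). In 849 (29.6%) p2 was below pMN on day 5 with no call on day 7, and in 39 it was below on both days. The shares of these patterns over all intervals were not computed. Interval_150298, named for its large WT D9 excess, is an example of a called reversal. On day 5 WT pMN had 110 and 70.7 reads against 13.9 and 22.8 in p2, and MUT pMN 100, 60.5 and 61.9 against 15.0, 15.9 and 24.6. On day 7 WT p2 had 106, 63.6 and 90.6 reads against 17.2, 15.9 and 18.5 in pMN, and MUT p2 64.0, 77.4 and 87.6 against 21.2, 18.4 and 23.5. The groups did not overlap on either day and the order was reversed between them. The p2 minus pMN difference over both genotypes was -1.88 ± 0.22 on day 5 (limma, adjusted p = 5.15e-10) and 1.83 ± 0.20 on day 7 (adjusted p = 5.85e-11). By MUT day 11 its p2 libraries had 15.1, 14.3 and 11.9 reads, a fall of 2.60 (log2; SE 0.32) from day 9 (adjusted p = 2.36e-09). Interval_7514 went the same way, with 246 and 212 reads in WT D5 pMN against 54.6 and 71.6 in p2, and 239, 192 and 293 in WT D7 p2 against 49.4, 67.8 and 120 in pMN.

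**Figure D5:**
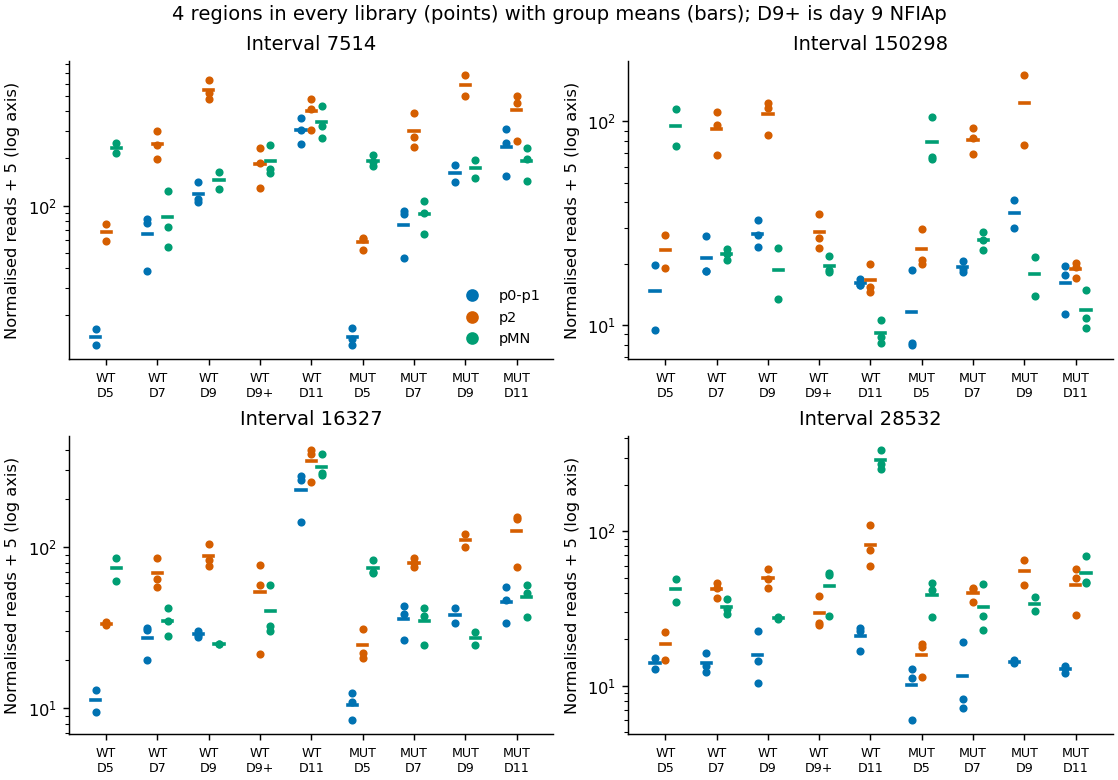
Normalised reads + 5 (log axis) of 4 regions in every library (points) with group means (bars), for p0-p1 (blue), p2 (orange) and pMN (green), by genotype and day; D9+ is the NFIAp fraction of WT day 9. In Interval_7514 and Interval_150298 pMN is highest on day 5 and p2 on days 7 and 9. Interval_16327 rises in all populations of WT day 11, and Interval_28532 reaches 333, 269 and 247 reads in WT D11 pMN.

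Before day 9 no difference in p2 excess between the genotypes was called in these regions. The excess over the mean of both neighbours differed between MUT and WT in 0 regions on day 7 and in 0 on day 5 (limma, Benjamini-Hochberg adjusted p under 0.05). On both days these comparisons called 0 of all 155734 intervals as well, so the absence of calls is not particular to the regions. At an unadjusted p under 0.05, 15 regions were more (0.522%, against 1.52% of all intervals) and 61 less (2.12%, against 1.66%) in MUT on day 7. On day 5, 17 were more (0.592%, against 0.975%) and 57 less (1.99%, against 0.967%). The medians were -0.08 and -0.06. Without the 3 doubted libraries the counts were again 0. Over the regions, the WT and MUT excess had r = 0.74 on day 7 and 0.81 on day 5, as a description. The median MUT minus WT level of p2 was 0.03 on day 7, -0.07 on day 5, 0.25 on day 9 in NFIAn and 0.51 on day 11; the last 2 use WT groups of the rule and are descriptions.

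Other sets chosen with the same thresholds give a setting for these values. The 1705 intervals that met the day 9 threshold and kept a WT excess of at least 0.3 on day 11 had a median MUT excess of 0.96 on day 9 and 0.63 on day 11, against 0.77 and 0.21 in the 2871. Their WT D5 and D7 medians were -0.65 and 0.52, against -0.63 and 0.40, so the early pMN lead was present in both sets. In WT D9 NFIAp, 54 of the 1705 were called higher in p2 than in pMN and 0 lower, where all intervals had 0.67% and 0.846%. In the 2871 the counts were 38 and 2. The median p2 minus pMN difference there was 0.28, against 0.16 in the 2871. The p2 level in WT NFIAp minus NFIAn had a median of -1.08, against -1.01. MUT D9 p2 minus WT D9 p2 NFIAp was 1.32, against 1.28. The median NFIAp lead over pMN was thus small in both sets, and larger in the 1705. The 950 intervals with an excess of at least 0.7 on day 11 and below 0.3 on day 9 had medians of -0.16 in WT D5, -0.11 in WT D7 and -0.06 in MUT D9. The sets were chosen on WT values, and the differences between them were not tested.

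The interval numbers carry some order. Of the 2871 regions, 218 (7.59%) had another of them as the next or previous number, where 3.62% of all intervals had one of them beside it. There were 104 runs of consecutive numbers, 94 of 2 regions and 10 of 3. The 5427 other intervals next to a region had a median WT D9 excess of -0.12 and a median MUT D9 excess of -0.11, close to the -0.17 and -0.16 of all intervals. In the run from Interval_26845 to Interval_26847, the last had 486 and 565 reads in MUT D9 p2 against 206 and 204 in p0-p1 and 254 and 243 in pMN, with no overlap. Its differences were 1.33 ± 0.20 and 1.06 ± 0.20 (limma, adjusted p = 5.58e-06 and 0.000116). In the run from Interval_59197 to Interval_59199, Interval_59198 was 1 of the 38 regions called in the WT NFIAp fraction, with 38.5, 22.8 and 58.1 reads in p2 and 11.6, 15.9 and 17.3 in pMN (adjusted p = 0.0301). An earlier analysis of these data marked 3 blocks of consecutive numbers, 2 for a level that differs between the genotypes and the second one given here for a level that differs between replicates. Over days 5, 7 and 9 in NFIAn, the median MUT minus WT level of their intervals was -0.13, -0.12 and 0.28 (log2), beside 0.05 for all intervals. They held 180, 150 and 18 of the regions, among them Interval_28532, Interval_29251 and the run from Interval_26845, and of the 2523 outside them 674 (26.7%) were above both neighbours in MUT D9.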

How the data were processed

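Accessibility was measured in 71 ATAC-seq libraries, grouped by the genotype, day, population and NFIA fraction of their labels. The deposited table holds signal, that is, the reads of each interval scaled by a library's size factor. Reads were mapped to mm10, per the submitters' processing notes; the aligner, peak caller and counting tool are not given in the sources used here. Every column was a whole multiple of 1 step (100% of values within 0.01), and dividing by the step gave the reads behind it. Scaling cannot be recognised in 2 columns whose step lay close to 1, replicate 2 of WT D9 pMN NFIAn and replicate 1 of MUT D11 p2.

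The log2(value + 5) scale was tested in limma 3.58.1 (R 4.3.3), where 1 model of 26 group means covered every library, with a mean-variance trend and 45 residual degrees of freedom. A fold change on this scale understates the change of low regions. A value of 10 or more in 2 or more libraries was required, which 155734 of 155738 intervals and all 2871 regions met. Calls need a Benjamini-Hochberg adjusted p under 0.05, adjusted over all of these intervals, and the named direction. At the regions' median level of 34.5 normalised reads, counting error limits the precision of 1 library, and read-based limits cover counting error only, since reads are not all independent molecules. Replicate pairs differed by 1.53 to 9.16 chi-square units per degree of freedom, so none was a copy.

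The WT D9 NFIAn and WT D11 groups chose the regions, so tests used only MUT, WT D5, WT D7 and WT D9 NFIAp. The members, lists, rule for named regions and comparisons were chosen with earlier results of these data known. There were 12 comparisons from the start and 17 added after the data were seen. Regions were named by rule. With at least 30 normalised reads in WT D9 p2 NFIAn, these were the 8 with the largest WT D9 excess, the 4 with the most negative MUT D9 excess, the 4 with the most negative WT D11 excess and the 4 with the largest MUT D11 excess. With at least 30 in MUT D9 p2, they were the 6 with the largest MUT D9 excess among those called above both neighbours. Added to these were the regions nearest each threshold and those of the longest runs of numbers, up to 6. The text gives values for some of them, picked after their values were seen.

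Pairing was checked by the correlation of residuals between libraries of different populations with the same replicate number. Every same-number pair exceeded 0.1 in each day 7 comparison, in MUT D5 and for WT D9 NFIAp p2 with pMN (lowest r 0.159), which were taken as paired. The main counts come from the model without pairing, also for these groups, and the replicate block gives the paired counts. MUT D9 has only 2 pairs per comparison, with r from 0.218 to 0.344. In MUT D11 the mean r per comparison was 0.199 to 0.241, with pairs as low as 0.042. Neither was taken as paired, the first for its few pairs and the second for its low ones, so pairing there stays unsettled. WT D5 also has only 2 pairs per comparison, with r from 0.175 to 0.240, and its pairing was not settled either. Other settings were pseudocounts of 1 and 20, no filter, a mean of at least 30, quantile normalization, equal library totals, only the groups compared, the replicate block, edgeR 4.0.16 on the recovered reads, a log2 change of at least 1, and leaving out libraries. Figures were drawn with matplotlib 3.10.9.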

Additional observations from a re-analysis of the deposited data

Results flagged for a closer look

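Each result here is a difference between groups that was itself tested with limma (Benjamini-Hochberg adjusted p under 0.05). No group holds 4 or more libraries, so single libraries were not tested as outliers. The p2 minus pMN difference was larger in MUT than in WT NFIAp on day 9 in 184 regions. It was larger in MUT D11 than in WT D9 NFIAp in 105 regions. In MUT, the p2 minus p0-p1 difference was smaller on day 11 than on day 9 in 4 regions and the p2 minus pMN difference in 1. Over both genotypes, the p2 minus pMN difference was larger on day 7 than on day 5 in 1961 regions. In MUT it was larger on day 9 than on day 5 in 2181 regions. In the first of these, genotype and NFIA fraction differ together, and in the second also the day, so they cannot be told apart. Both use the WT NFIAp p2 libraries, which lay nearer pMN than p2 over all tested intervals.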

How the results depend on the processing

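Of 30 counts of regions under 330 settings other than leaving out 1 library, 258 were within 1.5 times the reported count and 72 were not. Unless named otherwise, counts are of p2 above the named neighbour. No value of a named region reversed; 904 kept their side of the threshold, 42 lost the call and 20 gained it. The cause of these shifts was not tested, except that 2 settings are stricter by construction.

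With a pseudocount of 1, MUT D9 over p0-p1 was 718, MUT D11 over p0-p1 210, the larger p2 minus pMN difference of MUT against WT NFIAp on day 9 82, and the smaller MUT differences on day 11 0 for p0-p1 and 0 for pMN. With 20, the last 3 were 582, 76 and 25, MUT D11 against WT D9 NFIAp was 250, and 14 regions had less MUT excess on day 11. Fitting only the groups compared gave 726 for MUT D9 over p0-p1, 0 for WT NFIAp over pMN, 708 for WT p2 NFIAp below day 7, 690 for MUT p2 above WT p2 NFIAp, and 0 for both differences against WT NFIAp and for both smaller MUT differences.

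With the replicate block within genotype and day, MUT D9 over p0-p1 was 1770, WT NFIAp over pMN 183, MUT D11 over p0-p1 576, day 5 over pMN 35, less MUT excess on day 11 44, the differences against WT NFIAp 893 on day 9 and 586 for MUT D11, and the smaller MUT differences 334 for p0-p1 and 33 for pMN. Whether the MUT D9 and D11 libraries are paired stays unsettled, so their block values are not given as a paired result. The block moved no other of the 30 counts by over 1.5 times. Counts in the opposite direction, which are not among the 30, rose by more than that in several comparisons, such as 25 in place of 2 for WT NFIAp below pMN. Quantile normalization gave 64 for WT NFIAp over pMN and 14 for the smaller p0-p1 difference. Equal totals gave 13 for day 5 over pMN, 187 for MUT D11 against WT NFIAp and 0 for the smaller pMN difference. Without the 3 doubted libraries, WT NFIAp over pMN was 222, the day 9 difference against WT NFIAp 121, and the smaller MUT differences 16 and 4. edgeR gave 121, 7 and 0 for the last 3.

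With a mean of at least 30, which tests fewer regions, the counts over pMN were 987 in MUT D9, 916 in MUT D11, 779 on day 7 and 13 on day 5, and over p0-p1 181 in MUT D11 and 1296 on day 7. On day 5, 1046 were below pMN. MUT p2 rose in 923 and fell in 807, WT p2 NFIAp was below day 7 in 706 and below MUT p2 in 1406. From day 5 to 7, 1261 rose in p2, 1064 rose in p0-p1 and 647 fell in pMN, and the p2 minus pMN difference was larger in 1232 on day 7 and 1342 in MUT D9. With a log2 change of at least 1, WT NFIAp over pMN was 18, MUT D11 106 over p0-p1 and 930 over pMN, day 7 673 and 461, and day 5 436 and 2, with 837 below pMN. MUT p2 fell in 810 and WT p2 NFIAp was below day 7 in 574. MUT p0-p1 rose in 614 to day 9 and 183 to day 11, and MUT pMN in 187 and 128. From day 5 to 7, 1357 rose in p2, 869 in p0-p1, and 420 fell in pMN.

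Leaving out 1 library at a time gave 150 to 1026 for MUT D9 over p0-p1, 517 to 1617 over pMN, 2 to 214 for WT NFIAp, 117 to 462 and 903 to 1528 for MUT D11, 1762 to 2068 and 1115 to 1371 for day 7, and 787 to 937 and 6 to 21 for day 5, with 1302 to 1559 below pMN. MUT p2 rose in 653 to 1509 and fell in 450 to 1331, with less excess in 0 to 5. WT p2 NFIAp was below day 7 in 888 to 1096 and below MUT p2 in 1246 to 2294. The genotypes' excess differed in 0 on days 5 and 7. MUT p0-p1 rose in 615 to 995 to day 9 and 174 to 392 to day 11, and pMN in 193 to 382 and 116 to 239. From day 5 to 7, 2086 to 2226 rose in p2, 1537 to 1705 in p0-p1, and 900 to 1096 fell in pMN. The differences ran from 0 to 357 and 21 to 327 against WT NFIAp, 0 to 16 and 0 to 7 for the smaller MUT ones, 1756 to 2001 for day 7 and 1540 to 2235 for MUT D9 against day 5. In groups of 2 this leaves a lone library assumed to vary like the other groups. The median MUT p0-p1 change from day 9 to 11, 0.00, was -0.05 with quantile normalization and -0.01 with equal totals.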
